A study of Mus musculus with 9 samples.

Results

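On Clariom S arrays of mouse fetal thymic lobes, 27 genes read lower on all 3 Tbx1 mutant arrays than on each of the other 6 arrays. They were chosen from the deposited values by 3 conditions. The highest of the 3 Tbx1 mutant values had to lie under the lowest of the other 6, the mean of the 6 had to exceed the mean of the 3 by at least 1 log2 unit, and the mean of the 6 had to be at least 6. Parathyroid hormone (Pth), the calcium-sensing receptor (Casr), chromogranin A (Chga), Cldn7, the Ccl21 chemokine genes with their near copies Gm10591 and Gm13304, and genes of the X and Y chromosomes were left out. Of the 22142 transcript clusters on the array, which are the probe groups that each give 1 value, 19527 had a gene symbol and 18672 could be taken under these terms. The 3 conditions were met by 45 clusters, of which 27 are the genes described here. The others were 6 clusters with no symbol, 1 gene on the X chromosome, Pth, Casr and Chga, Cldn7, and 7 clusters of Ccl21 genes and near copies.

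The study measured total RNA of thymic lobes at stage e13.5 in 3 genotypes with 3 arrays each, all on the C57BL/6 strain. The genotypes were wild type, the compound mutant Foxn1933/1089, and the homozygous mutant Tbx1neo2/neo2. The neo2 allele is known as one that lowers Tbx1 expression without removing it. The labels name no Cre or transgene and do not say whether lobes were pooled or whether the 3 arrays of a genotype came from separate embryos. The p-values below therefore measure only the spread between these samples, which may be technical.

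TBX1 is a T-box transcription factor of the pharyngeal endoderm, mesoderm and ectoderm, and its loss is known to disturb the pharyngeal arches and pouches. FOXN1 is the transcription factor that drives differentiation of thymic epithelium. The thymus and the parathyroid gland both arise from endoderm of the third pharyngeal pouch. They start as 1 shared primordium and separate while the thymic lobe moves towards the chest, so a lobe dissected at this age may carry parathyroid tissue. Parathyroid cells are known for secreting parathyroid hormone under the control of the calcium-sensing receptor and for storing chromogranin A in granules.

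A pair of arrays stood apart, and most of the results below are given with and without them. Wild type replicate 1 and Foxn1 mutant replicate 2 read 4.24 and 4.45 for Prss16, a thymic epithelial protease that read 13.87 to 14.43 on the other 7 arrays, and a list of FOXN1-dependent genes averaged 6.29 and 6.72 there. On wild type replicate 1 a list of neuron and glia genes averaged 11.06, against 5.09 to 5.68 on the other 8 arrays, and on Foxn1 mutant replicate 2 the cardiac gene Myl7 read 10.71. The titles of the samples carry 3 date codes of unstated meaning. Code A is shared by 1 array of each genotype (Tbx1 mutant replicate 1, Foxn1 mutant replicate 2, wild type replicate 3). Foxn1 mutant replicates 1 and 3 share code B with wild type replicate 2. Code C is left for Tbx1 mutant replicates 2 and 3 with wild type replicate 1. The cluster of Tbx1 itself read 4.80 to 5.38 on the Tbx1 mutant arrays and 4.07 to 5.85 on the others, so it did not check the labels, and whether its probes lie in the altered part of the gene was not stated in the sources used here.

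The promoters of 4 of the genes are shown as examples. They do not stand for all kinds of member, as no gene grouped below under receptors and signalling or under enzymes and carriers is shown. Pla2g7, Ibsp and Nell1 encode the secreted proteins with the greatest differences, and Crb3 is an epithelial polarity gene whose sequence holds the letters AGGTGT. Each sequence is the 250 bases before the first listed start of the gene, on its own strand, from RefSeq on build GRCm38.p6. Capitals mark AGGTGT (reverse complement ACACCT), the core that T-box proteins bind, TATAAA (reverse complement TTTATA), the TATA box, and GGGCGG (reverse complement CCGCCC), the GC box that SP-family factors bind. The positions are chr17:43568201-43568450 for Pla2g7, chr5:104299037-104299286 for Ibsp, chr7:49975100-49975349 for Nell1 and chr17:57061951-57062200 for Crb3, all on the plus strand.
Pla2g7: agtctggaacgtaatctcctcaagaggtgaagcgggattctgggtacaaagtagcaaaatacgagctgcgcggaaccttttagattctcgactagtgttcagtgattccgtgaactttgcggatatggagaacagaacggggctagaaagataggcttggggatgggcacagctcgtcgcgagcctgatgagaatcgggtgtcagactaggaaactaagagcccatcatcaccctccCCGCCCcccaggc
Ibsp: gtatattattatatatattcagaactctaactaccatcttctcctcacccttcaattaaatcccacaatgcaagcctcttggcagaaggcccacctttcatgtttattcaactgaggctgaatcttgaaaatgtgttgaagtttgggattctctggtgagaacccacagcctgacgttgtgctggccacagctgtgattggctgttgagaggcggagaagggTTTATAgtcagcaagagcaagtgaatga
Nell1: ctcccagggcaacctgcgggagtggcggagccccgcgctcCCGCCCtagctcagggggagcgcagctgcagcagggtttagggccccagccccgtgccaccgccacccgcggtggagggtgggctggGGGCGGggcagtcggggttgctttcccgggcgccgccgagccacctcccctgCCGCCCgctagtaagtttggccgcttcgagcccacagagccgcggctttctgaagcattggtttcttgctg
Crb3: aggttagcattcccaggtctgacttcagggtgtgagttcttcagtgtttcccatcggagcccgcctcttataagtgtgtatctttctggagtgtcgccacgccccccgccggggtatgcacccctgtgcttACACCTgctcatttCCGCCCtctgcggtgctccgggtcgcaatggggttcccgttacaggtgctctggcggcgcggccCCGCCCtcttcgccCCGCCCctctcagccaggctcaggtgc

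The table of promoters held 19 of the 27 genes. The GC box was found in 14 of these 19 promoters (73.7%), against 44.5% of 15691 promoters of genes with a cluster on the array and 32.9% of all 27025 promoters. AGGTGT was in 3 of the 19 (15.8%), those of Ampd3, Crb3 and Ece1, against 11.0% and 12.0%. TATAAA was in 1 of the 19 (5.26%), that of Ibsp, where the match begins at position -28, against 12.2% and 13.0%. All searches ran on both strands, and no match overlapped another in these 19 promoters. The promoters of the genes were rich in G and C, with a median of 66% and 18 CpG pairs, against 56% and 10 CpG pairs for genes on the array. Ibsp, with 43.6% and 2 CpG pairs, was the lowest of the 19. These counts describe letters in 1 window per gene and name no binding.

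How far the genotypes lay apart varied widely among the 27 genes. The mean of the 6 arrays minus the mean of the 3 had a median of 1.54 and ran from 1.02 for Phlda1 and Erbb3 to 3.82 for Pla2g7. Some of these sizes rest on Tbx1 mutant values under the median of the negative-control probes, on all 3 arrays for Pla2g7 and Ibsp and on 1 array for Spink8 and Hspa2. As measured, the difference reached 2 in 8 genes and 3 in 2, Pla2g7 and Ibsp. With each such value raised to the negative-control median of its array, it reached 2 in 7 genes and 3 in 1, and was 3.01 for Pla2g7, 2.56 for Nell1, 2.55 for Fam107a and 2.43 for Ibsp. The gap between the highest Tbx1 mutant value and the lowest other value was narrower, with a median of 0.26. It was at least 1 in 5 genes (Pla2g7, Nell1, Spink8, Ibsp and Sparcl1), with or without that floor, and under 0.25 in 13, down to 0.0063 for Fam107a. These values come from the arrays that chose the genes and carry no test. As background, the Tbx1 mutant arrays all lay under the other 6 in 206 of the 18672 clusters (1.1%) and all above them in 159 (0.852%). All 3 conditions held for 27 (0.145%), and the same conditions turned upside down held for 12. In bulk RNA, fewer cells of a type and less RNA per cell cannot be told apart.

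**Figure D1:**
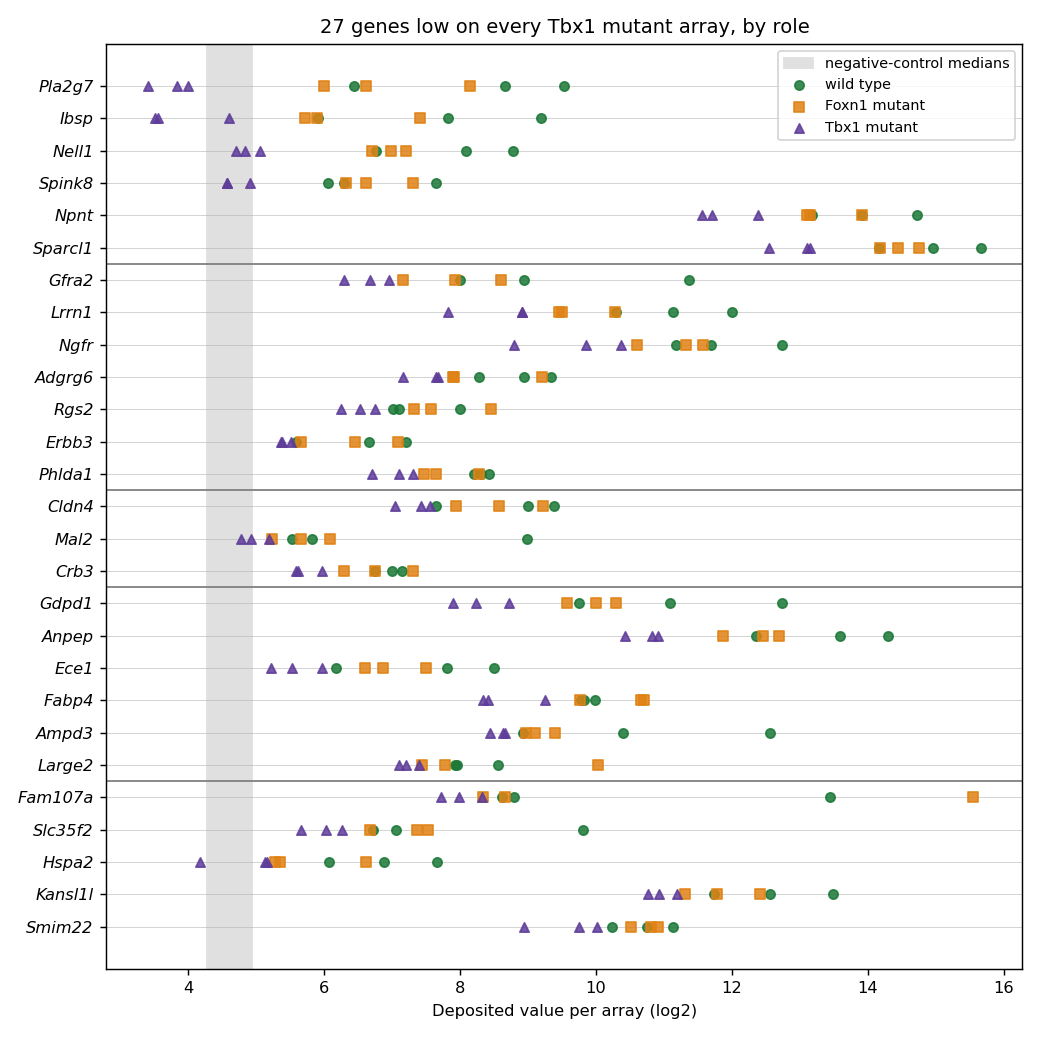
Deposited log2 value (horizontal axis) of each of the 27 genes (rows, grouped by role) on every array, with wild type as circles, Foxn1 mutants as squares, Tbx1 mutants as triangles (3 arrays each) and the range of the negative-control medians, 4.27 to 4.94, as a grey band. The triangles lie left of the other symbols in every row, by 1.65 for Nell1 and by 0.0063 for Fam107a, and wild type replicate 1 and Foxn1 mutant replicate 2 lie far to the right for Fam107a at 13.44 and 15.56.

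Secreted and matrix proteins included the gene with the greatest difference. The roles used here were assigned after the values had been seen. Pla2g7, the secreted phospholipase that breaks down platelet-activating factor, read 9.54, 6.45 and 8.67 on wild type replicates 1 to 3, 5.99, 6.62 and 8.15 on Foxn1 mutant replicates 1 to 3, and 3.83, 3.99 and 3.41 on Tbx1 mutant replicates 1 to 3. Ibsp, bone sialoprotein, an acidic matrix protein that binds mineral and integrins, read 9.19, 5.92 and 7.82, then 5.90, 5.72 and 7.41, then 3.52, 4.61 and 3.56 in the same order. Both genes were under the median of the negative-control probes on all 3 Tbx1 mutant arrays, which leaves only a bound on the difference. Taking the negative-control median of each Tbx1 mutant array as the floor, Pla2g7 was at least 8.03-fold and Ibsp at least 5.39-fold higher in the mean of the other 6 arrays. The measured differences were 3.82 and 3.10 on the log2 scale. Values on the other 6 arrays were uneven for both genes, with the same 3 arrays, wild type replicates 1 and 3 and Foxn1 mutant replicate 3, above 7 and the remaining 3 under 7.

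Nell1, a secreted protein with EGF-like repeats that is known for promoting bone formation, read 8.78, 6.76 and 8.09 in wild type, 6.99, 6.70 and 7.20 in Foxn1 mutants and 4.70, 5.06 and 4.83 in Tbx1 mutants. Its genotype means were 7.88 ± 1.03, 6.97 ± 0.25 and 4.86 ± 0.18 (SD, n = 3 each), and the mean of the 6 was 5.89-fold that of the 3. The gap between its ranges was 1.65. That of Pla2g7 was 2.00 as measured and 1.32 with the floor. Spink8, a Kazal-type inhibitor of serine proteases, read 7.64, 6.06 and 6.29, then 6.32, 7.31 and 6.62, then 4.57, 4.58 and 4.91, a difference of 2.02. Unlike the others of its role, its next highest value after wild type replicate 1 was on Foxn1 mutant replicate 2. Spink8 read under the negative-control median on 1 Tbx1 mutant array.

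The remaining matrix proteins were abundant on all arrays. Npnt, nephronectin, a basement membrane ligand of the integrin with the alpha8 chain, read 14.73, 13.17 and 13.92 in wild type, 13.11, 13.15 and 13.92 in Foxn1 mutants and 11.57, 11.71 and 12.38 in Tbx1 mutants, a difference of 1.78. Sparcl1, a secreted relative of SPARC, read 15.66, 14.17 and 14.97, then 14.18, 14.45 and 14.76, then 13.16, 12.54 and 13.11, a difference of 1.76. Both kept high values in Tbx1 mutants, far above the negative controls. All 6 genes of this role were highest on wild type replicate 1, and all 6 kept a difference of at least 1 without that array and Foxn1 mutant replicate 2. Their median difference was 2.29 as measured and 2.21 with the floor, beside 1.54 over the 27 either way.

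Several of these proteins have known partners or relatives, picked for this comparison after the values had been seen, and those given here for this role did not share the pattern. Itga8, the integrin chain that binds nephronectin, read 10.64 to 11.11 on the Tbx1 mutant arrays and 8.82 to 11.77 on the others. Nell2, the relative of Nell1, read 9.13 to 10.08 on the Tbx1 mutant arrays and 7.51 to 11.12 on the others. Sparc read 17.39 to 18.19 and 16.80 to 18.29. In each case the Tbx1 mutant values lay within the range of the other 6 arrays.

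Among receptors and signalling proteins, Gfra2, the co-receptor for neurturin, had the greatest difference. It read 11.37, 8.01 and 8.94 in wild type, 7.17, 7.92 and 8.61 in Foxn1 mutants and 6.96, 6.68 and 6.30 in Tbx1 mutants, a difference of 2.03, or of 1.54 without the 2 arrays that stood apart. Wild type replicate 1 was well above all other arrays, and the gap between the ranges was 0.21. Ret, the kinase through which GFRA co-receptors signal, was at 3.74 to 4.97 on 8 arrays and at 10.47 on wild type replicate 1. The ligand gene Nrtn read 3.89 to 4.92 on all 9.

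Lrrn1, a leucine-rich repeat membrane protein of developing nervous tissue, read 12.01, 11.14 and 10.29 in wild type, 9.51, 10.28 and 9.46 in Foxn1 mutants and 7.83, 8.92 and 8.91 in Tbx1 mutants. Its genotype means stepped from 11.15 ± 0.86 to 9.75 ± 0.46 and 8.55 ± 0.63 (SD, n = 3 each). Ngfr, the low-affinity neurotrophin receptor, also a marker of neural crest cells, read 12.74, 11.17 and 11.69, then 10.61, 11.32 and 11.58, then 10.37, 9.85 and 8.79, a difference of 1.85. Its highest Tbx1 mutant value was 0.24 under its lowest other value. The neurotrophin receptor genes Ntrk2 and Ntrk3 did not share this order, with 10.98 to 12.26 and 9.47 to 10.27 on the Tbx1 mutant arrays and 8.24 to 12.55 and 6.59 to 11.02 on the others.

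The other 4 signalling genes lay close to the minimum difference. Adgrg6, an adhesion G protein-coupled receptor needed for myelination by Schwann cells, had a difference of 1.10. Rgs2, which turns off heterotrimeric G proteins, had 1.08. Erbb3, a neuregulin receptor with little kinase activity of its own, and Phlda1, a pleckstrin-homology protein, had 1.02 each. Erbb3 read 6.66, 7.20 and 5.59 in wild type, 6.46, 7.09 and 5.66 in Foxn1 mutants and 5.39, 5.37 and 5.52 in Tbx1 mutants, so that wild type replicate 3 was only 0.07 above the highest Tbx1 mutant value. Without the 2 arrays that stood apart all 4 had a difference under 1, with 0.76 for Adgrg6, 0.995 for Rgs2, 0.80 for Erbb3 and 0.90 for Phlda1. Erbb2, the usual partner of ERBB3, read 7.84 to 7.92 on the Tbx1 mutant arrays, within the 7.36 to 8.54 of the others.

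The 27 genes included 3 epithelial junction and polarity genes, and none of them was highest on wild type replicate 1. Cldn4, a tight junction claudin, read 8.996, 9.38 and 7.65 in wild type, 9.22, 8.58 and 7.95 in Foxn1 mutants and 7.43, 7.56 and 7.05 in Tbx1 mutants, a difference of 1.28 with a gap of 0.09. Crb3, the epithelial Crumbs protein that sets up the apical membrane, read 7.001, 7.15 and 6.76, then 7.31, 6.30 and 6.76, then 5.61, 5.59 and 5.98, a difference of 1.15. Mal2, a membrane protein of apical transport, read 5.83, 8.99 and 5.53, then 6.08, 5.24 and 5.66, then 5.19, 4.93 and 4.77. The difference of 1.26 in Mal2 was 0.70 without wild type replicate 2, and the gap between its ranges was 0.05. All 3 kept a difference of at least 1 without wild type replicate 1 and Foxn1 mutant replicate 2, at 1.20 for Cldn4, 1.27 for Crb3 and 1.60 for Mal2.

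Cldn4 stood beside other claudins in the wider list of epithelial identity and junction genes. Of its 29 measured genes, 1 was called lower in Tbx1 mutants than in wild type by limma at an adjusted p under 0.05, Cldn7, and none was called higher, with a list median of -0.07. The call of Cldn7 (adjusted p = 0.035) held without wild type replicate 2 and was lost without any other single array (adjusted p up to 0.30), with the date code as a fixed block (adjusted p = 0.053) and after quantile normalization (adjusted p = 0.067). The Tbx1 mutant arrays lay under the other 6 for 4 of the 29, Cldn3, Cldn4, Cldn7 and Ocln, where the background is the 1.1% above. Of these, Cldn4 is a member, and Cldn7 met the same conditions but was left out by name. Cldn3 read under the negative-control median on all 3 Tbx1 mutant arrays and on 2 of the other 6, with a gap of 0.017. Cldn6, also near the negative controls, read 3.52 to 4.43 on the Tbx1 mutant arrays and 4.19 to 5.41 on the others, which overlap. Of the Crumbs partners, Patj read 6.20 to 6.58 on the Tbx1 mutant arrays and 6.29 to 7.34 on the others, and Mpp5 and Pard6b also overlapped. Mal, the relative of Mal2, read 4.47 to 5.03 on the Tbx1 mutant arrays and 4.79 to 7.17 on the others, which overlap as well.

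Enzymes and carriers made up 6 of the genes. Gdpd1, a glycerophosphodiester phosphodiesterase, read 12.74, 9.75 and 11.09 in wild type, 9.58, 9.997 and 10.29 in Foxn1 mutants and 8.23, 7.90 and 8.72 in Tbx1 mutants, a difference of 2.29 or 4.89-fold. Anpep, aminopeptidase N, a peptidase of the cell surface, read 14.30, 12.36 and 13.59, then 11.88, 12.45 and 12.69, then 10.92, 10.43 and 10.83, a difference of 2.15. In both, the lowest of the other arrays was Foxn1 mutant replicate 1, and the gap to the Tbx1 mutants was 0.86 and 0.96. Ece1, the enzyme that activates endothelin precursors, read 8.50, 6.18 and 7.81, then 6.61, 6.86 and 7.50, then 5.53, 5.22 and 5.97, a difference of 1.67. Its substrate gene Edn1 read 2.83 to 4.46 on all 9 arrays.

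Fabp4, a fatty acid carrier of fat cells, macrophages and some endothelium, varied little among the wild type arrays. It read 9.83, 9.99 and 9.78 in wild type, 10.71, 9.76 and 10.66 in Foxn1 mutants and 8.41, 8.34 and 9.25 in Tbx1 mutants, and its difference of 1.46 was 1.62 without the 2 arrays that stood apart. The fixed endothelium list did not share it, with an average of 7.94 to 8.30 on the Tbx1 mutant arrays and 7.40 to 8.35 on the others. Ampd3, an AMP deaminase abundant in red blood cells, and Large2, a glycosyltransferase that extends glycans on dystroglycan, rested more on single arrays. Ampd3 read 12.57 on wild type replicate 1, 8.93 to 10.40 on the other 5 and 8.44 to 8.67 in Tbx1 mutants. Large2 read 10.03 on Foxn1 mutant replicate 2, 7.45 to 8.56 on the other 5 and 7.10 to 7.39 in Tbx1 mutants. Without both arrays the differences were 0.77 and 0.54.

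Of the last 5 genes, Fam107a, an actin-associated protein induced by stress hormones, rested most on the 2 arrays that stood apart. It read 13.44, 8.79 and 8.61 in wild type, 8.67, 15.56 and 8.34 in Foxn1 mutants and 7.99, 7.72 and 8.33 in Tbx1 mutants, and its difference of 2.55 became 0.59 without them. Slc35f2, a membrane transporter, was at 9.81 on wild type replicate 1, at 6.68 to 7.54 on the other 5 and 5.67 to 6.26 in Tbx1 mutants. Hspa2, a heat-shock protein of the HSP70 family, read 5.28 to 7.66 and 4.18 to 5.16, with 1 Tbx1 mutant array under the negative-control median. Kansl1l, a relative of the chromatin protein KANSL1, read 11.31 to 13.49 and 10.77 to 11.19. Smim22, a small membrane protein, read 10.24 to 11.14 and 8.95 to 10.02, and wild type replicate 1 was its lowest array among the 6.

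**Figure D2:**
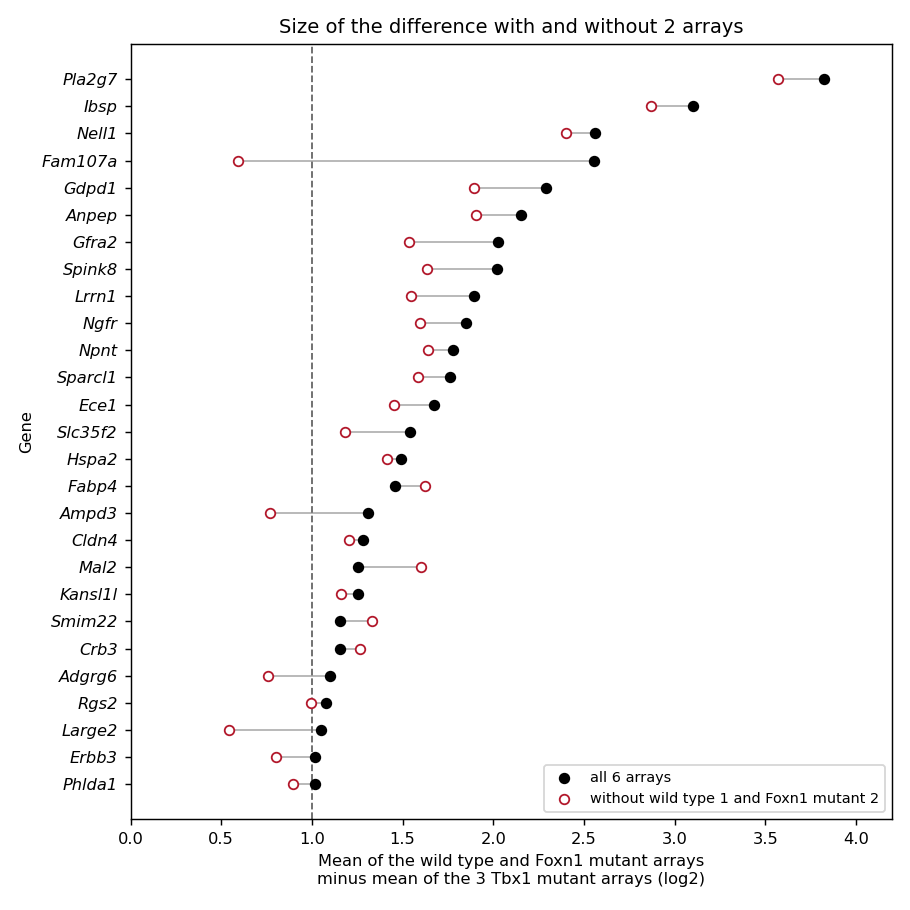
Mean of the wild type and Foxn1 mutant arrays minus mean of the 3 Tbx1 mutant arrays (log2, horizontal axis) for each of the 27 genes (rows), over all 6 arrays (filled) and without wild type replicate 1 and Foxn1 mutant replicate 2 (open), with the minimum of 1 as a dashed line. The median is 1.54 over all and 1.45 without them, and 7 open points lie left of the line.

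Without wild type replicate 1 and Foxn1 mutant replicate 2, 20 of the 27 genes kept a difference of at least 1, with a median of 1.45 and a range of 0.54 to 3.57. The 7 others were Fam107a, Ampd3, Adgrg6, Rgs2, Large2, Erbb3 and Phlda1. Wild type replicate 1 gave the highest of the 6 values in 17 of the 27 genes, against 19.9% of the 18672 clusters, and lay at least 1 above the mean of the remaining 4 arrays in 18, against 7.01%. The condition on the mean of the 6 can favour genes high on wild type replicate 1, so these shares are not independent of the choice. The neuron and glia genes were also high on that array, and their part in the 27 genes was not tested. The difference was read within date codes as well, as a description only. The choice had already put each Tbx1 mutant array under each other array, so the sign was fixed in advance. Within code A, Tbx1 mutant replicate 1 minus wild type replicate 3 had a median of -1.72 over the 27 genes and was -1 or less in 21, a pair that holds neither of the arrays that stood apart. Within code C, where the only wild type array is replicate 1, the median was -2.90 and 24 genes were at -1 or less.

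No condition of the choice ranked the 6 arrays that were not Tbx1 mutant. The condition on their mean can favour genes high on wild type replicate 1, so their order is not independent of the choice. In 12 of the 27 genes the highest values fell on wild type replicate 1, then wild type replicate 3, then Foxn1 mutant replicate 3. This order was noticed after the values had been seen. The 12 were Pla2g7, Ibsp, Nell1, Gdpd1, Anpep, Gfra2, Ngfr, Npnt, Sparcl1, Ece1, Hspa2 and Kansl1l. The order was held by 0.600% of the 18672 clusters, by 0.632% of the 8385 with a mean of at least 6, and by 1 of the 179 other clusters whose Tbx1 mutant arrays lay under the rest. Among the 665 clusters with a mean of at least 6 on which wild type replicate 1 stood at least 1 above the remaining 4 arrays, it was held by 2.86%. After quantile normalization or median centring of the arrays, 11 of the 27 genes held it.

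The parathyroid genes left out of the 27 had the same order. Pth read 14.13, 11.89 and 13.82 in wild type, 12.22, 11.95 and 13.25 in Foxn1 mutants and 7.06, 6.85 and 6.07 in Tbx1 mutants. Casr read 13.03, 10.69 and 12.16, then 9.85, 8.13 and 11.57, then 7.02, 6.02 and 5.58. Chga read 13.65, 10.51 and 12.68, then 10.21, 10.17 and 11.10, then 3.68, 4.78 and 4.46. All 3 genes, and all 7 clusters of Ccl21 genes and near copies, were highest on wild type replicate 1, then wild type replicate 3, then Foxn1 mutant replicate 3. The 3 arrays carry 3 different date codes. The amount of parathyroid tissue in each lobe was not measured, and its part in these values was not tested.

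**Figure D3:**
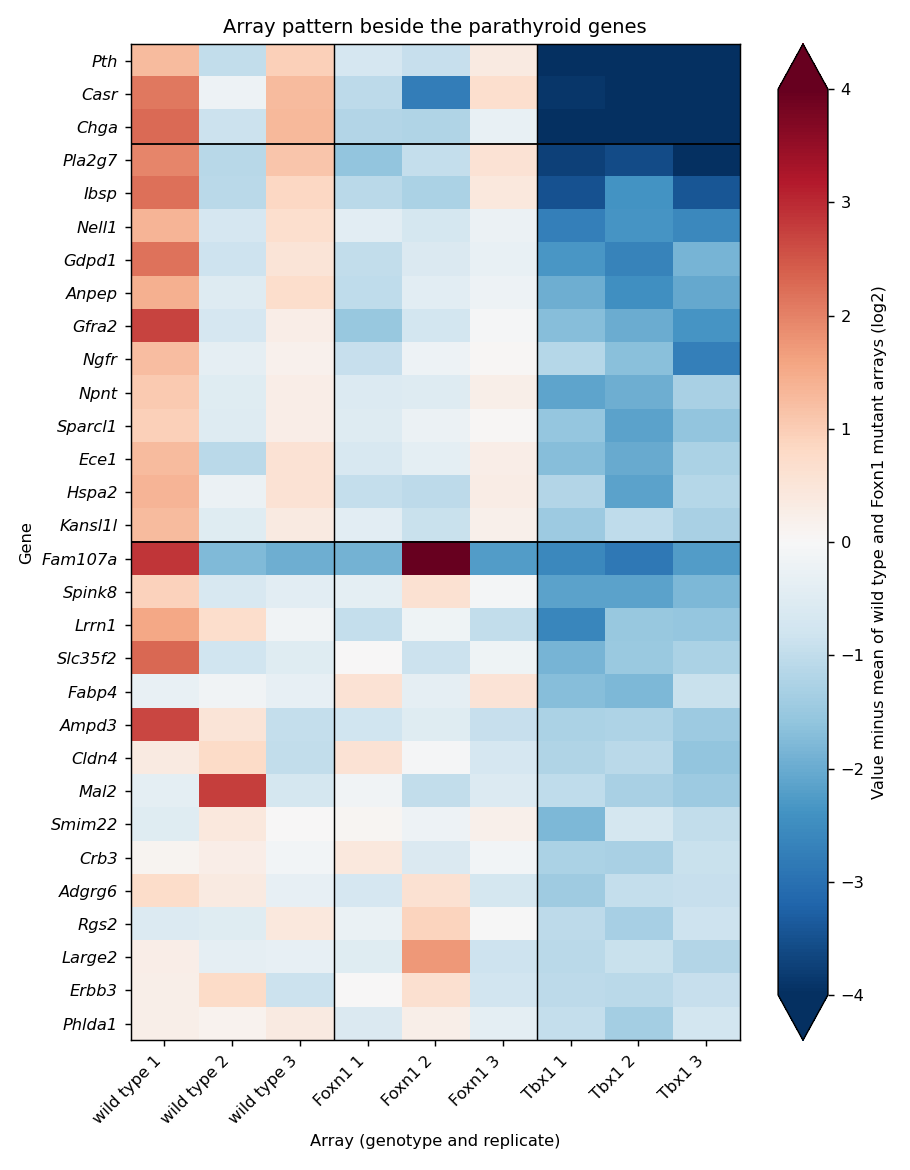
Colours give each gene's value on each array minus its mean over the wild type and Foxn1 mutant arrays (log2, saturated at -4 and 4), for Pth, Casr and Chga (top block), the 12 genes that share their order of arrays (middle block) and the 15 that do not (bottom block). In the top and middle blocks wild type replicates 1 and 3 are red or pale red, as read from 9.54 and 8.67 for Pla2g7, while the strongest red of the bottom block falls on Foxn1 mutant replicate 2 for Fam107a at 15.56.

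The other 15 genes did not have this order. Cldn4 and Mal2 were highest on wild type replicate 2, then Foxn1 mutant replicate 1, then wild type replicate 1. Lrrn1, Spink8, Slc35f2, Ampd3 and Adgrg6 were highest on wild type replicate 1, followed by other arrays than in the parathyroid genes. Fam107a, Large2 and Rgs2 were highest on Foxn1 mutant replicate 2. Erbb3 and Smim22 were highest on wild type replicate 2 as well, and Phlda1 on wild type replicate 3. Fabp4 and Crb3 were highest on Foxn1 mutant replicate 1.

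Setting Foxn1 mutants against wild type asks whether the 27 genes also differ in the other mutant. No condition of the choice set these groups against each other. The condition on the mean of the wild type and Foxn1 mutant arrays can still favour genes high on wild type replicate 1. A high value there lowers Foxn1 mutants minus wild type, so this comparison is not independent of the choice. None of the 27 was called by limma at a Benjamini-Hochberg adjusted p under 0.05, as none of the 22142 clusters was (0%), and the lowest adjusted p over all clusters was 1.00. At an unadjusted p under 0.05, 3 of the 27 were lower in Foxn1 mutants and none was higher, where 1.77% of all clusters were lower and 4.05% were lower or higher. The 3 were Lrrn1, with a difference of -1.40 ± 0.46 (SE of the limma fit), Anpep, with -1.08 ± 0.44, and Hspa2, with -1.12 ± 0.49. Their adjusted p was 1.00 in each case.

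The 27 differences between Foxn1 mutants and wild type ran from -1.54 for Gfra2 to 0.57 for Fam107a, and 21 of them were under 0, where 47.6% of all clusters were. Their median was -0.55, beside 0.02 over all clusters. Neither the share under 0 nor this median is independent of the choice, which can favour genes high on wild type replicate 1. The median moved with single arrays. It was -0.26 without wild type replicate 1, -0.93 without wild type replicate 2 and -0.78 without wild type replicate 3. Leaving out a Foxn1 mutant array gave -0.42, -0.75 and -0.76 for replicates 1 to 3. It was -0.33 without both arrays that stood apart and -0.29 in a fit blocked on the code in the titles. Within code A, where 1 wild type and 1 Foxn1 mutant array could be compared, the median was -0.37 with 19 genes lower. That Foxn1 mutant array is replicate 2, which stood apart. Within code B, which holds neither of the arrays that stood apart, the median was -0.08 with 15 lower. The Foxn1 mutant arrays all lay under the wild type arrays in 1 gene, Lrrn1, where 3.42% of all clusters did, and all above them in none, where 4.86% did. With 3 arrays against 3, an exact permutation test of a single gene cannot give a two-sided p below 0.1.

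**Figure D4:**
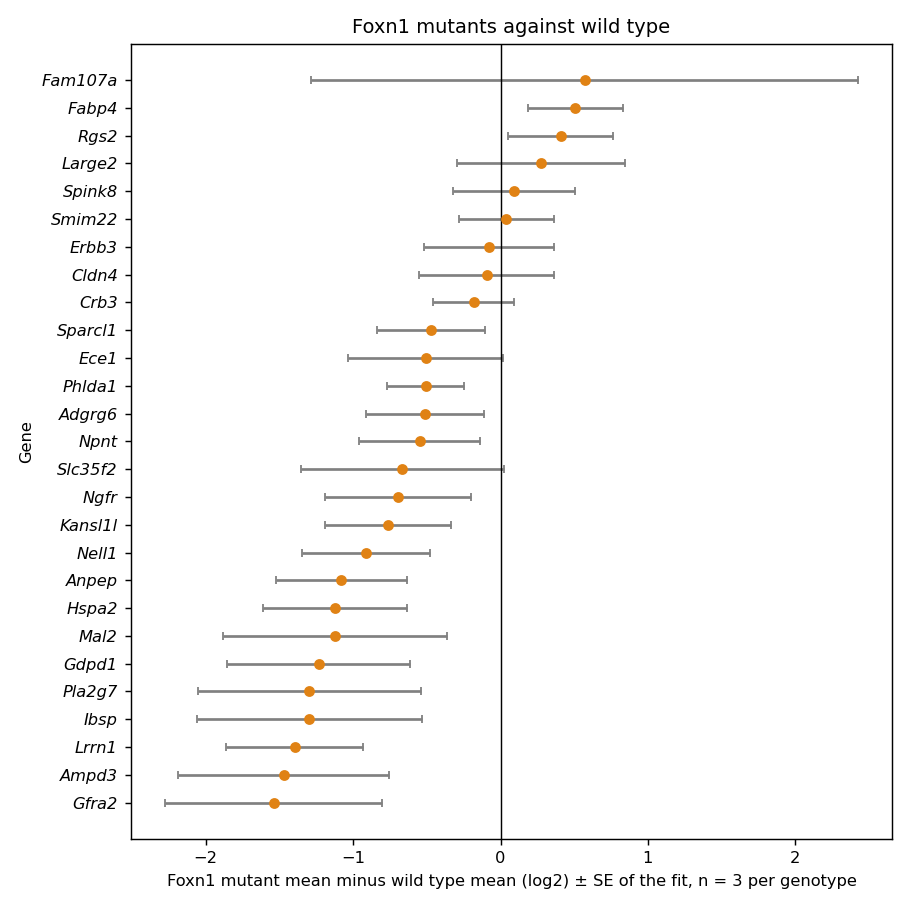
Foxn1 mutant mean minus wild type mean (log2, points) with the SE of the limma fit (bars, n = 3 arrays per genotype) for each of the 27 genes. Of the points, 21 lie left of 0, from -1.54 for Gfra2, and 6 lie right of it, up to 0.57 for Fam107a, whose SE of 1.85 is the widest.

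The comparisons that chose the genes are given as a description only. Tbx1 mutants minus wild type had a median of -1.98 over the 27 genes and ran from -4.47 to -0.87. None of the 27 passed an adjusted p of 0.05 in limma, where 3 of the 22142 clusters did (0.0135%). The 3 were Pth, Chga and Cldn7, which met the conditions of the choice but were left out by name. That none of the 27 passed therefore follows from leaving them out. Of the 27, 25 had an unadjusted p under 0.05, where 1.82% of all clusters were lower and 3.78% were lower or higher at that level. Without wild type replicate 2, 20 of the 22142 clusters passed, and 5 of the 27 genes were among them, Pla2g7, Ibsp, Nell1, Gdpd1 and Anpep. Tbx1 mutants minus Foxn1 mutants had a median of -1.26, with none called among the 27 or among all clusters (0%) and 17 of the 27 at an unadjusted p under 0.05, where 1.68% of all clusters were lower and 2.97% lower or higher. Both comparisons share the Tbx1 mutant arrays.

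The lists of known markers place the 27 genes beside the rest of the tissue. Only 1 of the 27, Cldn4, was on any of the 20 lists, under epithelial junctions and under medullary epithelium. The parathyroid list had 2 of 11 measured genes called lower in Tbx1 mutants than in wild type, Pth and Chga. Its average level was 4.77 to 5.09 on the Tbx1 mutant arrays and 6.02 to 7.54 on the others. Only Pth, Casr and Chga had all Tbx1 mutant arrays under the other 6, and 4 of the 11 were under the negative-control median on all 9. The list median was -0.68 against wild type and -0.10 against Foxn1 mutants, so the averages do not describe the whole list. The call of Pth was lost with the date code as a fixed block (adjusted p = 0.053), and that of Chga was kept (adjusted p = 0.0051). The secretory granule list had 1 of 21, Chga again. No gene was called among the 18 of the pouch patterning list (median -0.05), the 18 of the TBX1 route (median 0.13), the 13 of medullary epithelium (-0.12) or the 13 of FOXN1-dependent epithelium (0.77). The FOXN1-dependent list averaged 6.29 on wild type replicate 1 and 9.60 and 9.45 on wild type replicates 2 and 3. On the Tbx1 mutant arrays it averaged 9.22 to 9.53, so its positive median includes a wild type array low in these genes. The list averages for mesenchyme and neural crest, 6.34 to 6.74 on the Tbx1 mutant arrays, and for leukocytes, 7.84 to 8.28, lay within the ranges of the other arrays, 5.95 to 7.51 and 6.69 to 8.63. No gene of the remaining lists, from T lineage to stress, was called in this comparison, but some list medians lay far from 0. The median was -2.26 for neuron and glia, where wild type replicate 1 averaged 11.06, and -1.55 for erythroid genes. It was -0.72 for muscle, -0.65 for hypoxia and 0.82 for extracellular matrix. The other remaining lists had medians of -0.26 to 0.39. Without wild type replicate 3, Tbx1 mutant replicate 2 or Tbx1 mutant replicate 3, none of the list genes was called.

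The 27 genes were spread over 15 chromosomes, with at most 3 on any. Among the nearest 5 protein-coding genes on each side, ordered by the RefSeq annotation of GRCm38.p6, 240 measured neighbours were not among the 27, and the Tbx1 mutant arrays lay under the other 6 for 3 of them (1.25%), close to the 1.1% of all clusters. The 3 were Mesp2, Cldn3 and Ro60. Sparcl1 and Ibsp were the only pair of the 27 that neighbour each other, 3 genes apart on chromosome 5. Dspp and Dmp1, the tooth and bone matrix genes between them, read 2.95 to 3.30 and 2.87 to 3.76 on all 9 arrays, under the negative controls. None of 15 measured neighbours of Tbx1 was among the 27.

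The minimum difference of 1 divided genes of similar behaviour. Just inside it were Phlda1 (difference 1.02), Erbb3 (1.02), Large2 (1.05) and Rgs2 (1.08). Just outside were Kif13b (0.93), Gng12 (0.92), Cldn8 (0.89) and Rab27a (0.88), which met the other conditions. By mean level, Mal2 at 6.22 was the lowest inside and Abcc3 at 5.89 the highest outside. Rhcg, an ammonia transporter with a mean of 5.62, was left out by its level alone. It read under the negative-control median on all 3 Tbx1 mutant arrays and on 1 of the other 6, so its measured difference of 2.50 is only a bound of 1.06 with the floor.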

How the data were processed

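RNA of 9 samples was read on Clariom S mouse arrays, 1 array each. The deposited table of the series holds 1 log2 value per transcript cluster and array and was used as given. No software, normalization method or build for these values was found: each is not given in the sources read here. The cluster medians of the arrays lay at 5.10 to 5.20 and the negative-control medians at 4.27 to 4.94. Signal over background and 3 arrays per genotype limit the precision, and no depth applies.

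Gene names came from the platform annotation. Each genotype was a term in a linear model over all 9 arrays (limma 3.58.1, R 4.3.3, two-sided moderated tests, Benjamini-Hochberg adjustment over 22142 clusters, threshold 0.05), which was tested on simulated data. A floor at the negative-control median, added after the values were seen, and date code as a block were tried, as were quantile normalization, median centring and leaving out arrays. A gene with several clusters was read from the one with the highest mean. Replicates were numbered in accession order.

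The members and lists were chosen with earlier results of these data known. Genes were named by a rule: the 15 members with the largest difference, those on a marker list, the 4 nearest each side of the minimum difference, the 3 lowest p-values between Foxn1 mutants and wild type, the extremes of the arrays that stood apart, and up to 4 genes per list. The other members, their partners, neighbours and the genes near the level limit were named in addition, after their values were seen.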

Additional observations from a re-analysis of the deposited data

How the results depend on the processing

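The number of genes that met the conditions was 27 and depended on the limits. It was 56 with a difference of at least 0.5, 8 with at least 2, and 16 with a mean of at least 8. It was 26 to 49 when 1 array was left out at a time, the highest without Tbx1 mutant replicate 1 (24 shared with the 27), and 83 without both Foxn1 mutant replicate 2 and wild type replicate 1, a setting chosen after seeing the data, with 20 shared. Fewer arrays make the condition on ranges easier to meet. Quantile normalization gave 24 genes, without Cldn4, Fam107a and Phlda1, and median centring 25, without Erbb3 and Phlda1. None of the 27 genes was called between Tbx1 mutants and wild type with all arrays, and 0 to 5 were with 1 array left out, 5 of them without wild type replicate 2, where 20 of all 22142 clusters were called. Of the list genes, 3 were called with all arrays, Pth, Chga and Cldn7, which had been left out of the 27 by name. With the date code as a fixed block 1 was called (Chga, with Pth and Cldn7 lost), and with 1 array left out 0 to 4 were. The cause was not tested. The median of Tbx1 mutants minus wild type was -2.90 within code C, against -1.98. No paired analysis was possible because replicate numbers only follow accession order; the date codes that the genotypes share were used instead, as a block and within each code.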
